A study of Mus musculus with 16 samples.

Results

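The levels of 10 genes that encode regulators of alternative splicing in neurons were examined in mouse hippocampus: Nova1, Nova2, Rbfox1, Rbfox2, Rbfox3, Ptbp2, Srrm4, Khdrbs2, Khdrbs3 and Qk. They were selected by gene name, and make up 10 of the 54532 genes of the count table, 33610 of them with any count. All 10 were counted in every mouse, from a lowest count of 71 for Khdrbs2 to a highest count of 12325 for Qk, and all 10 passed the filter on low counts in every comparison.

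RNA was sequenced from the hippocampus of 16 mice in 4 groups of 4. The hTau.P301S mice carry a human Tau transgene with the P301S mutation, driven by the neuronal Thy1 promoter, and WT mice served as controls. Mice of both genotypes received nicotinamide riboside (NR), a precursor of NAD+, at 6 mM in drinking water for 3 months, or vehicle water. Per the labels, treatment ran from 12 to 15 months of age, and behavioral tests came before tissue collection. The study's text gives a younger age and, in 1 place, a shorter treatment. The labels give no sex, litter or dissection day. Whole tissue was used, so that fewer cells of a type and less RNA per cell cannot be told apart.

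Alternative splicing joins the exons of a transcript in different combinations, and RNA-binding proteins decide which exons are used by binding near them. In the brain the NOVA, RBFOX, PTBP2, SRRM4 and KHDRBS proteins set the exon choices of synaptic, channel and cytoskeletal transcripts, while QK does so mainly in glia. Their messenger RNA levels, reported here, do not measure the activity of the proteins or the splicing of their targets.

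Each library held 16490261 to 21915362 counts. The library labelled hTau.P301S replicate 1 stood apart: 14.4% of its counts were mitochondrial, against 4.48 to 7.07% in the other 15, and 19467 genes were detected in it, against at least 22199. Its summed level of 6 microglia markers was 1647 CPM (counts per 1000000 counts), against at most 493 elsewhere, and the fold changes and lists it alters most are given with and without it. The libraries WT replicate 2, WT + NR replicate 3 and hTau.P301S + NR replicate 4 had low summed levels of 8 hippocampal excitatory neuron markers (2268, 1986 and 3353 CPM) and the highest of 6 striatal neuron markers (1462, 302 and 508 CPM, against at most 166 elsewhere). The endogenous Thy1 gene, whose reads can include transgene sequence, spanned 423 to 633 CPM over the 8 WT mice of both treatments, 803 to 1638 CPM over untreated transgenic mice (803 to 1101 CPM without that library) and 666 to 844 CPM over NR-treated ones.

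In GENCODE vM21 (GRCm38), the genes range from the 39.4 kb of Nova2 to the 1526 kb of Rbfox1 (ENSMUSG00000008658, chr16:5885355-7411526, plus strand). Rbfox2 (ENSMUSG00000033565) lies at chr15:77078990-77307004, Nova1 (ENSMUSG00000021047) at chr12:46694517-46818929 and Qk (ENSMUSG00000062078) at chr17:10202601-10319854, all on the minus strand. Qk overlaps no other annotated gene, and each of the other 9 overlaps at least 1.

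Per kilobase of gene length, Rbfox1 was the most abundant of the 10 regulators and Khdrbs2 the least. The median over 16 mice was 63.4 CPM per kilobase for Rbfox1, 40.9 for Rbfox3, 40.8 for Khdrbs3, 33.4 for Rbfox2 and 25.6 for Qk. Lower were Nova2 at 10.8, Ptbp2 at 10.5, Nova1 at 5.60 and Srrm4 at 4.48 CPM per kilobase, and Khdrbs2 was at 1.01. Between Qk and Nova2, the range over mice did not overlap, and Qk was above Nova2 in 16 of 16 mice. Other neighbours in this order overlapped: Rbfox3 exceeded Khdrbs3 in 9 of 16 mice, and Nova2 exceeded Ptbp2 in 4 of 16 although its median was higher. Leaving out hTau.P301S replicate 1, the most even levels over mice were those of Nova2, Rbfox2 and Ptbp2, with a standard deviation (SD) of log2 CPM of 0.15, 0.17 and 0.18, and the least even were those of Rbfox1 and Nova1, at 0.50 and 0.39.

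**Figure D1:**
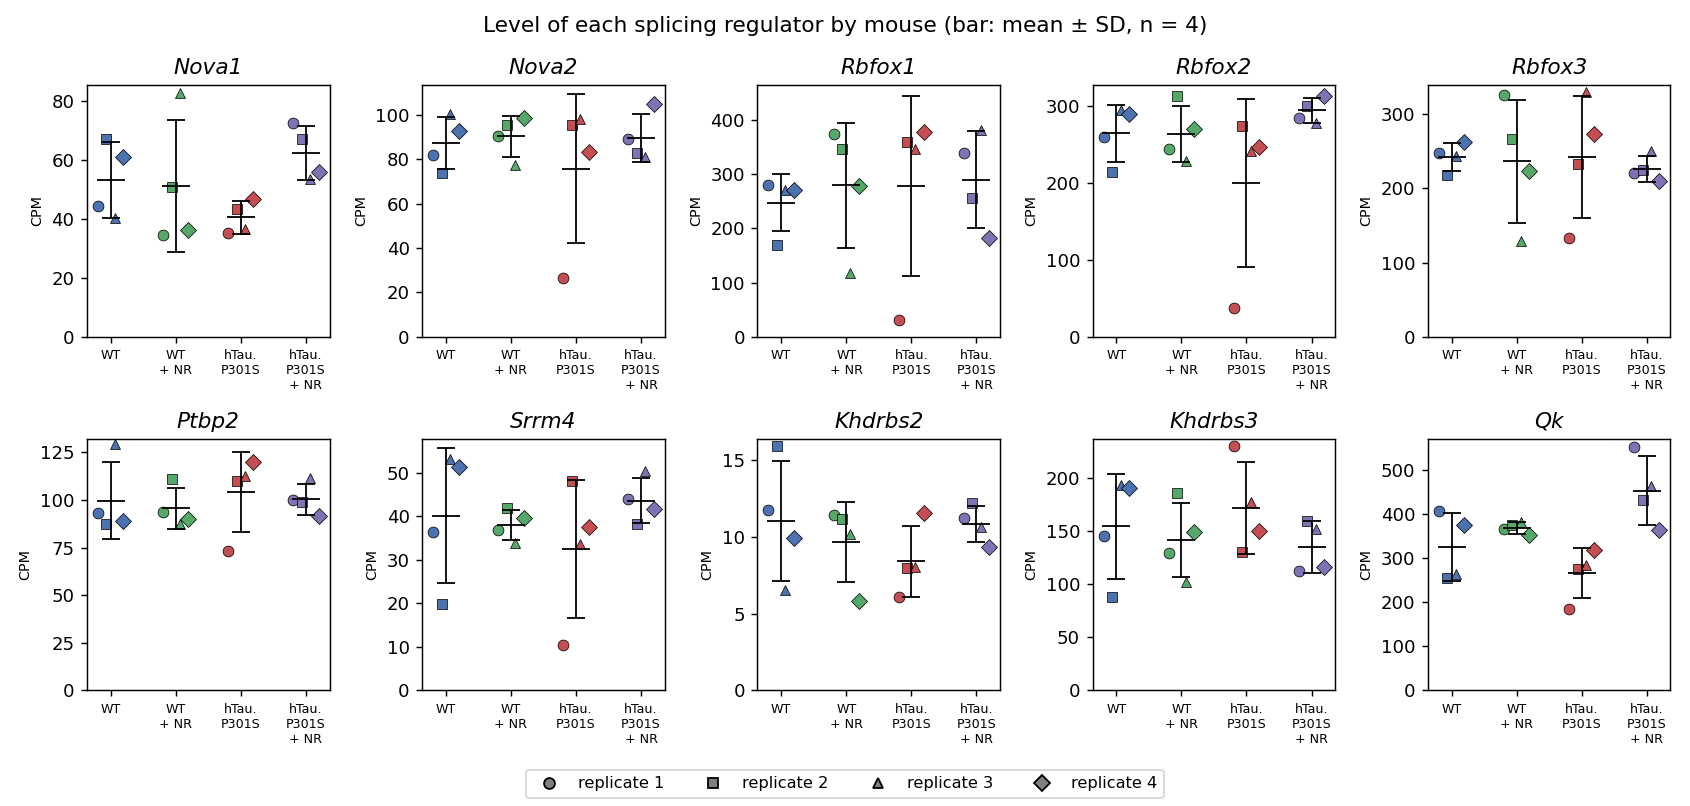
Level of each regulator in CPM (y axis, from 0) in 4 mice of each group (x axis); symbols give the replicate and bars the mean ± SD. Replicate 1 of hTau.P301S lies far below the other mice for Rbfox1 (31.0 CPM) and Rbfox2 (38.1 CPM), and Qk and Nova1 lie higher in every hTau.P301S + NR mouse than in every hTau.P301S mouse.

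Nova1 and Nova2 encode the NOVA proteins, neuronal RNA-binding proteins that regulate exons of synaptic transcripts. Nova1 was at 44.3, 67.3, 40.2 and 61.1 CPM in the 4 WT mice and at 35.4, 43.4, 36.6 and 46.9 CPM in the 4 hTau.P301S mice (replicates 1 to 4 in order, here and for every gene). In NR-treated mice it was at 34.4, 51.0, 82.9 and 36.2 CPM in WT + NR and at 72.6, 67.4, 53.6 and 56.1 CPM in hTau.P301S + NR. All 4 hTau.P301S + NR mice were above all 4 hTau.P301S mice, the 2 WT groups overlapped widely, and WT + NR replicate 3 was the highest of all 16. Nova2 was at 82.1, 73.9, 101 and 92.7 CPM in WT and at 26.5, 95.6, 98.0 and 83.6 CPM in hTau.P301S. With NR, it was at 90.6, 95.4, 77.5 and 98.7 CPM in WT + NR and 89.4, 83.0, 81.0 and 105 CPM in hTau.P301S + NR. Apart from replicate 1 of hTau.P301S, all Nova2 values lay between 73.9 and 105 CPM, and all groups overlapped.

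Rbfox1, Rbfox2 and Rbfox3 encode a family that promotes or represses an exon depending on the side on which it binds, and RBFOX3 is the neuronal marker NeuN. Rbfox1 was at 280.0, 169.8, 270.1 and 270.3 CPM in WT and 31.0, 359, 347 and 377 CPM in hTau.P301S. With NR, it was at 374, 347, 118 and 278 CPM in WT + NR and 339.7, 257, 382 and 181 CPM in hTau.P301S + NR. WT, WT + NR and hTau.P301S each held 1 mouse well below its other 3, and no pair of groups was separated. Rbfox2 was at 259, 214, 295 and 289 CPM in WT and 38.1, 274, 241 and 247 CPM in hTau.P301S. Under NR, it was at 244, 313, 228 and 269.8 CPM in WT + NR and 285, 299.6, 278 and 314 CPM in hTau.P301S + NR. The 4 hTau.P301S + NR values were the most alike of any group (SD of log2 CPM 0.08) and all exceeded those of hTau.P301S, though the closest pair of mice was 278 against 274 CPM. Rbfox3 was at 247, 217, 243 and 262 CPM in WT and 133, 233, 329 and 273 CPM in hTau.P301S. In the treated groups, it was at 326, 266, 129.6 and 223 CPM in WT + NR and 221, 224, 251 and 209.7 CPM in hTau.P301S + NR. The lowest Rbfox3 levels were in WT + NR replicate 3 and hTau.P301S replicate 1, and all groups overlapped.

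Ptbp2 encodes a repressor of neuronal exons during development, and Srrm4 encodes the activator of neuronal microexons. Ptbp2 was at 93.0, 87.2, 129 and 89.0 CPM in WT and 73.2, 110.0, 113 and 120.1 CPM in hTau.P301S. NR-treated mice had Ptbp2 at 93.8, 111, 87.5 and 89.8 CPM in WT + NR and 99.9, 98.8, 111 and 91.5 CPM in hTau.P301S + NR. WT replicate 3 was the highest and hTau.P301S replicate 1 the lowest of 16, and the other 14 lay between 87.2 and 120.1 CPM. Srrm4 was at 36.3, 19.9, 53.1 and 51.3 CPM in WT and 10.5, 48.2, 33.6 and 37.7 CPM in hTau.P301S. NR-treated mice had Srrm4 at 36.9, 41.9, 33.9 and 39.5 CPM in WT + NR and 44.0, 38.3, 50.4 and 41.6 CPM in hTau.P301S + NR. The mice hTau.P301S replicate 1 and WT replicate 2 were below the other 14, and all groups overlapped. Reads of genes lying within these genes could be counted for either. Gm42853 within Srrm4 reached 19.5% of the Srrm4 count in hTau.P301S replicate 1, where Srrm4 had 123 counts. The antisense gene Srrm4os reached 2.54 CPM, and Gm43300 within Ptbp2 reached 7.16% of the Ptbp2 count. Gm33869, which overlaps Nova1 on the same strand, reached 7.46% of the Nova1 count. Whether the counting used strand is not given in the sources used here.

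Khdrbs2 and Khdrbs3 encode the neuronal SAM68-like proteins, which regulate neurexin exons, and Qk encodes Quaking, a relative of the same family that regulates exons of myelin and astrocyte transcripts. Khdrbs2 was at 11.8, 15.9, 6.53 and 9.94 CPM in WT and 6.06, 7.94, 8.06 and 11.6 CPM in hTau.P301S. Its level with NR was 11.4, 11.2, 10.2 and 5.81 CPM in WT + NR and 11.2, 12.2, 10.6 and 9.37 CPM in hTau.P301S + NR. All groups overlapped at these low levels, which rest on 71 to 284 counts a mouse. Khdrbs3 was at 145, 87.8, 193 and 190.5 CPM in WT and 229.8, 129.9, 178 and 149.8 CPM in hTau.P301S. Its level with NR was 129.6, 185, 102 and 149 CPM in WT + NR and 112, 159.7, 152 and 116 CPM in hTau.P301S + NR. In scaled CPM, Khdrbs3 was the only one of the 10 that was highest, not low, in hTau.P301S replicate 1. The TMM scaling factor of that library was 0.685, against 0.955 to 1.10 in the others. Before scaling, its Khdrbs3 count was 2692 of 17096764, a smaller share than the 3673 of 18509516 in WT replicate 3. Qk was at 406, 254, 264 and 375 CPM in WT and 185, 276, 284 and 318 CPM in hTau.P301S. Its level with NR was 366, 373, 380.2 and 351 CPM in WT + NR and 552, 431, 462 and 363 CPM in hTau.P301S + NR. The lowest hTau.P301S + NR mouse was above the highest hTau.P301S mouse, and the 4 WT + NR mice lay closely together within the range of WT.

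The comparison of hTau.P301S with WT asks how the transgene alters the transcripts of these regulators. None of the 10 was called changed by edgeR's quasi-likelihood test (Benjamini-Hochberg adjusted p under 0.05 and absolute log2 fold change above 0.5), where 0.00611% of 16375 genes were called. DESeq2 also called 0 of 10, with 0.702% of genes called, and 0 of 10 had an unadjusted p under 0.05 by either tool, as 7.14% of genes had by edgeR and 9.56% by DESeq2. Of the 10, 7 were lower in hTau.P301S, with a median log2 fold change of −0.25 against 0.02 over all genes. Without hTau.P301S replicate 1, 6 were lower and 4 higher, with a median of −0.02, and after removal of a trend with gene length 5 were lower and 5 higher, with a median of −0.03. The lowest was Rbfox2, at a log2 fold change of −0.41 (standard error (SE) 0.50, adjusted p = 0.760), which became −0.07 without that mouse. Nova1 and Khdrbs2 were both at −0.39 (SE 0.22 and 0.32), Srrm4 at −0.31 (SE 0.46), Qk at −0.29 (SE 0.25) and Nova2 at −0.20 (SE 0.36). Rbfox1 was the highest at 0.16 (SE 0.61), and at 0.54 without replicate 1. Srrm4 and Nova2 moved to −0.02 and 0.07 without that mouse. Rbfox3, Ptbp2 and Khdrbs3 were at −0.0029 (SE 0.27), 0.06 (SE 0.22) and 0.16 (SE 0.30). In none of the 10 were the 4 hTau.P301S mice apart from the 4 WT mice, which occurred in 6.25% of all genes.

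**Figure D2:**
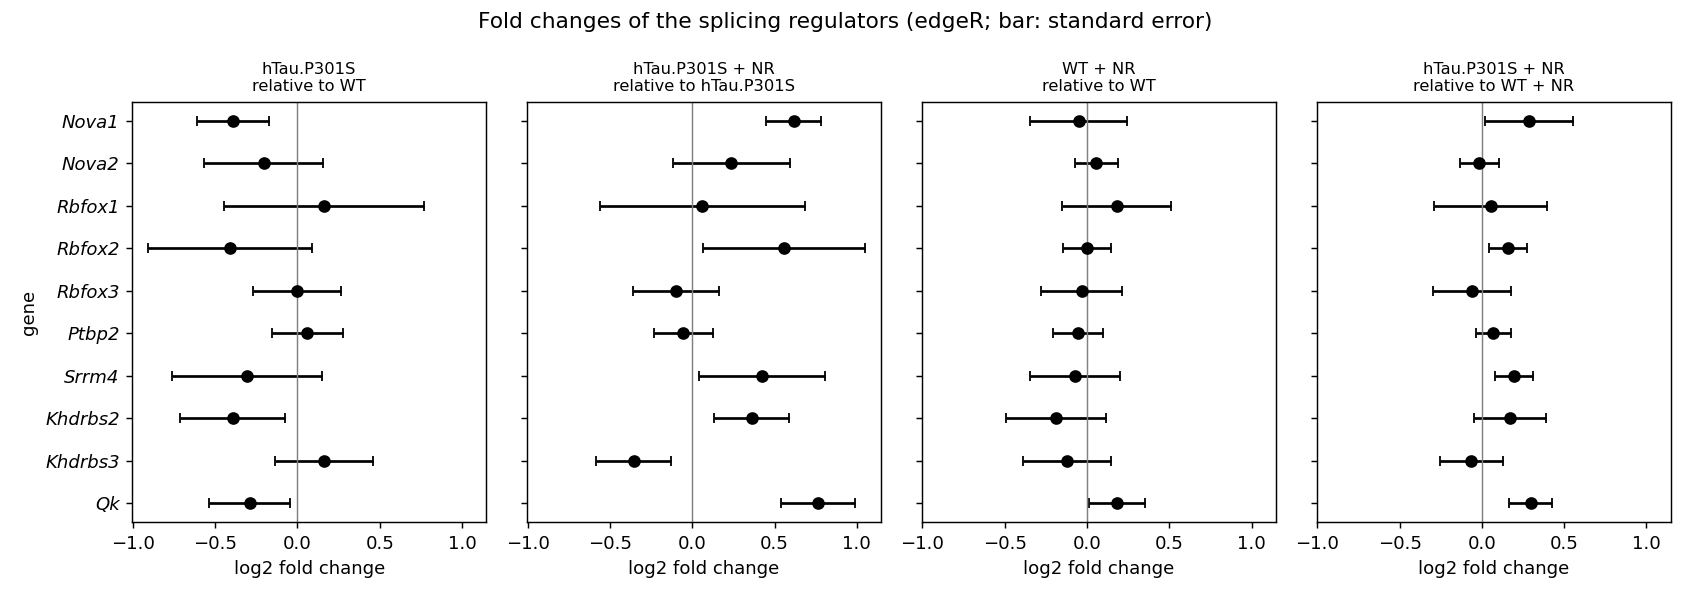
Log2 fold change (x axis) of each regulator (y axis) in 4 comparisons of 4 mice with 4 mice, from edgeR; bars are the standard error. Qk (0.76) and Nova1 (0.62) under NR in hTau.P301S mice lie farthest above 0 relative to their errors, and most values in WT + NR relative to WT lie near 0.

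NR in hTau.P301S mice was compared with vehicle in the same genotype. Qk and Nova1 had the largest differences relative to their errors: Qk was at 452 ± 78.3 CPM (mean ± SD, n = 4) in hTau.P301S + NR against 266 ± 56.8 CPM in hTau.P301S, and Nova1 at 62.4 ± 9.06 against 40.6 ± 5.5 CPM. The log2 fold change of Qk was 0.76 (SE 0.22) and that of Nova1 0.62 (SE 0.17). By edgeR neither passed after adjustment over 16386 genes (adjusted p = 0.367 for both, unadjusted p = 0.00773 for Qk and 0.0057 for Nova1). edgeR called 0 of 10 regulators, with 0.0061% of all genes called, and these 2 of 10 had an unadjusted p under 0.05, as did 12.9% of all genes (15.6% by DESeq2). DESeq2 on the same 8 mice called both, with an adjusted p of 0.0369 for Qk and 0.0293 for Nova1, where 1.73% of all genes were called and 1.29% were called higher. DESeq2 fitted to all 4 groups called Qk alone (adjusted p = 0.0223), with 1.63% of genes called. Over all settings tried, the adjusted p ranged from 0.0223 to 0.658 for Qk and from 0.0293 to 0.658 for Nova1, so that the call depended on the test.

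The 4 hTau.P301S + NR mice were all above the 4 hTau.P301S mice for Nova1, Rbfox2 and Qk, which is 3 of 10 regulators, where 11.9% of all genes did not overlap in this comparison and 6.32% were higher without overlap. Each gave an exact two-sided permutation p of 0.0286, the smallest that 4 against 4 allows, in 3 of 40 such tests over 10 regulators and 4 pairwise comparisons. Without hTau.P301S replicate 1, Qk was at 0.64 (SE 0.14, adjusted p = 0.0850 by edgeR), Nova1 at 0.57 (SE 0.14, adjusted p = 0.102) and Rbfox2 at 0.22 (SE 0.10, adjusted p = 0.294), from 0.56 (SE 0.49) with all 8 mice. Thus Qk and Nova1 were nearly as high without the deviating mouse, while the size for Rbfox2 rested on it.

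Removing a smooth trend of counts with gene length from each mouse left Qk, whose deposited length of 14242 bases is the longest of the 10, at 0.25 (SE 0.19, adjusted p = 0.514) and Nova1, at 8747 bases, at 0.28 (SE 0.20, adjusted p = 0.507), both by edgeR. Rbfox2 was at 0.43 (SE 0.36) and Ptbp2 at −0.38 in that fit, against −0.05 (SE 0.18) without the removal. The remaining regulators under NR in hTau.P301S mice were Srrm4 at 0.42 (SE 0.38), Khdrbs2 at 0.36 (SE 0.23), Nova2 at 0.24 (SE 0.36), Rbfox1 at 0.06 (SE 0.62), Rbfox3 at −0.10 (SE 0.26) and Khdrbs3 at −0.36 (SE 0.23). Leaving out hTau.P301S replicate 1 gave 0.14 for Srrm4, −0.03 for Nova2 and −0.31 for Rbfox1. With NR, 7 of 10 were higher, with a median of 0.30 against −0.03 over all genes. That median was 0.05 without replicate 1, with 5 higher and 5 lower, and 0.06 after removal of the length trend, with 6 higher and 4 lower.

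**Figure D3:**
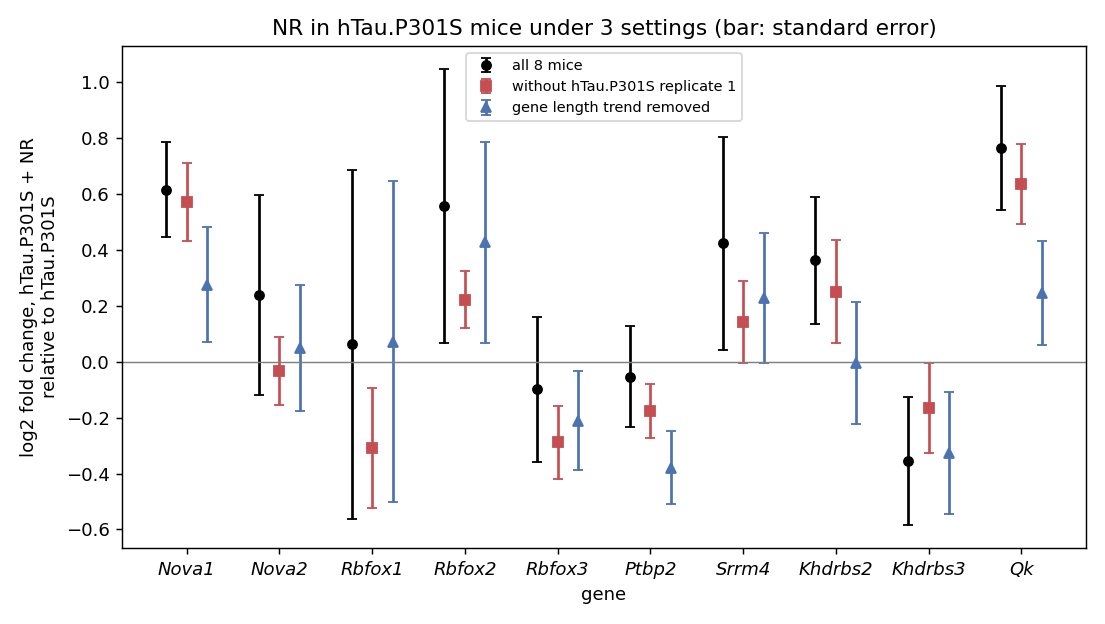
Log2 fold change of hTau.P301S + NR relative to hTau.P301S (y axis) for each regulator (x axis), with all 8 mice (circles), without hTau.P301S replicate 1 (squares) and with the gene length trend removed (triangles); bars are standard errors. Qk and Nova1 keep most of their size without replicate 1 (0.64 and 0.57) and not without the length trend (0.25 and 0.28).

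Glial markers are given beside Qk, and neuronal markers beside Nova1, since these genes are known for those cells. Markers of the other cell types examined are given as well. Summed over 8 of 8 oligodendrocyte markers, the level was 7624 to 10461 CPM in hTau.P301S and 7147 to 9441 CPM in hTau.P301S + NR, with 2 of 8 higher under NR. Summed over 6 of 6 astrocyte markers, it was 2456 to 5375 CPM and 4159 to 7249 CPM, with 5 of 6 higher. For 6 inhibitory neuron markers the sums were 871 to 1247 CPM and 987 to 1436 CPM, and for 8 excitatory neuron markers 2309 to 6653 CPM and 3353 to 5836 CPM. Replicate 1 of hTau.P301S had the 10461, the 2456, the 1247 and the 2309 CPM. Without it, the oligodendrocyte sums were 7624 to 9495 CPM and the astrocyte sums 3913 to 5375 CPM. The median log2 fold change of the astrocyte markers went from 0.40 to 0.17, with 5 of 6 still higher. The excitatory sums without it were 5354 to 6653 CPM. The inhibitory sums were then 871 to 936 CPM in 3 mice, all below those of hTau.P301S + NR, whose 1436 CPM was that of replicate 4. Gad2, a GABA-synthesizing enzyme named here after its values were seen, was then called higher by edgeR at a log2 fold change of 1.05 (adjusted p = 0.0496). In that fit 33 of 16734 genes were called. With all 8 mice Gad2 was at 1.34 (edgeR adjusted p = 0.367). Of the 6 inhibitory markers, 3 were then higher and 3 lower, the lowest being Pvalb at −1.70. Without that library 4 were higher and 2 lower, the lowest being Vip at −0.23. Of the 8 excitatory markers, 3 were higher and 5 lower in both fits. Of 8 general neuron markers, 1 was higher and 7 were lower under NR, with or without that mouse, and their sums were 4292 to 7675 CPM, or 6022 to 7675 CPM without it, against 5622 to 6868 CPM. The 4 endothelial markers summed to 61.6 to 109.5 CPM in hTau.P301S and 129.6 to 135 CPM in hTau.P301S + NR, without overlap, with 3 of 4 higher. The 6 striatal markers summed to 74.1 to 130.3 CPM and 69.8 to 508 CPM, all 6 higher under NR. The 508 CPM was that of hTau.P301S + NR replicate 4 alone, with 104, 166 and 69.8 CPM in replicates 1 to 3. DESeq2 called 2 of 6, Drd2 among them, where 1.73% of all genes were called. Oligodendrocyte precursor markers summed to 104 to 141 CPM and 123 to 167 CPM, with 3 of 4 higher. Microglia markers summed to 285 to 1647 CPM, or 285 to 449 CPM without hTau.P301S replicate 1, against 325 to 437 CPM. Of these, 1 of 6 was higher with all 8 mice and 4 of 6 without that library. Choroid plexus markers summed to 17.7 to 4630 CPM and 52.2 to 3504 CPM, with 0 of 4 higher. With all 8 mice edgeR called none of these markers, and none was at 0 in all mice; their part in the levels of Qk and Nova1 was not tested.

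The promoters of Nova1 and Qk, the pair called by DESeq2, are shown from 250 bases before to 50 bases after the RefSeq start (GRCm38.p6), 5′ to 3′ on the gene's strand, with capitals marking GGGCGG on either strand. Of the 10 regulators, 8 had a promoter entry; 35.7% of 32851 mouse promoters of this length hold GGGCGG, and the median number of CG dinucleotides is 7. The Qk window, chr17:10319312-10319611 on the minus strand, holds 5 matches and 57 CG dinucleotides. The Nova1 window, chr12:46818718-46819017 on the minus strand, holds no match, 14 CG dinucleotides and long runs of a. The CCAAT box (37.4% of promoters on either strand), the TATA motif TATAAA (13.6%) and the cyclic AMP response motif TGACGTCA (1.79%) are in neither window, so the pair shares none of the 4 motifs searched.
Qk: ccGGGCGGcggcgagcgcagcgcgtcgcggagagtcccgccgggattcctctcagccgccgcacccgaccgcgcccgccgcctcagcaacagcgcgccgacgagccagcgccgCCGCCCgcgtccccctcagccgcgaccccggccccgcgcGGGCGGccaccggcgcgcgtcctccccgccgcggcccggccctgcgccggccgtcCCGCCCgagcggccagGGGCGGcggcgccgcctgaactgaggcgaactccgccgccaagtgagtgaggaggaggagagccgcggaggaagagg
Nova1: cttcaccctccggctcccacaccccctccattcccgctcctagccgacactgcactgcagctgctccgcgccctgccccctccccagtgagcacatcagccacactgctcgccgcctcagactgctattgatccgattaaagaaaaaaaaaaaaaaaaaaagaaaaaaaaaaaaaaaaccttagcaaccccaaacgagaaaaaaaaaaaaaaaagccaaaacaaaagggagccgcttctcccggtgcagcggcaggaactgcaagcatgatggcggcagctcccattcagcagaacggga

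In WT mice the same treatment was compared with vehicle. edgeR and DESeq2 each called 0 of 10 regulators and 0.0% of 16714 genes, and 0 of 10 had an unadjusted p under 0.05 by either, as 0.79% and 1.1% of genes had. The log2 fold changes ran from −0.19 for Khdrbs2 (SE 0.31) to 0.18 for Qk (SE 0.17), with 4 higher and 6 lower and a median of −0.04 against 0.0043 over all genes. Nova1 was at −0.05 (SE 0.30). No regulator separated the 4 WT + NR mice from the 4 WT mice, as 0.754% of genes did.

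Whether the response to NR differed between genotypes was tested as the interaction over 16 mice. edgeR called 0 of 10 regulators and 0.0% of 17555 genes, with 0 of 10 at an unadjusted p under 0.05, and DESeq2 called 0 of 10 with 0.103% of genes called and 1 of 10, Qk, at an unadjusted p under 0.05. Over all genes that unadjusted share was 7.92% and 9.31% by the 2 tools. The difference of log2 fold changes, hTau.P301S minus WT, was highest for Nova1 at 0.68 (SE 0.36, adjusted p = 0.558), followed by Qk at 0.59 (SE 0.28, adjusted p = 0.558), Khdrbs2 and Rbfox2 at 0.56 (SE 0.39 and 0.54), and lowest for Khdrbs3 at −0.22 (SE 0.37). Without hTau.P301S replicate 1 these were 0.62 for Nova1, 0.46 for Qk, 0.44 for Khdrbs2, 0.22 for Rbfox2 and −0.04 for Khdrbs3, and after removal of the length trend Nova1 was at 0.39, Qk at 0.13, Khdrbs2 at 0.29 and Rbfox2 at 0.46. The median of the 10 was 0.34, and 0.09 without that mouse and 0.08 without the length trend. A different response of Qk or Nova1 in the 2 genotypes was thus not shown, nor was a like one.

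Among NR-treated mice, hTau.P301S + NR was compared with WT + NR. edgeR called 0 of 10 regulators, where 0.054% of 16671 genes were called, and DESeq2 called 0 of 10 with 0.348% called; Qk alone had an unadjusted p under 0.05 by both tools, against 6.09% and 7.04% of genes. Qk was the highest, at a log2 fold change of 0.30 (SE 0.13, edgeR adjusted p = 0.781), Nova1 was at 0.28 (SE 0.27) and Khdrbs3 was the lowest at −0.06 (SE 0.19). Of the 10, 7 were higher and 3 lower, with a median of 0.11 against −0.02 over all genes, and none was without overlap, against 3.73% of genes. Over all 16 mice the 2 genotypes differed by −0.12 (Rbfox2, SE 0.27) to 0.11 (Rbfox1, SE 0.37), and edgeR and DESeq2 each called 0 of 10, with 0.12% and 0.598% of 17555 genes called. None of the 10 had an unadjusted p under 0.05 for genotype, against 7.75% and 9.74% of genes.

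For all regulators but Nova1, the distance of 1 mouse from the median of the others exceeded the group differences above. In hTau.P301S replicate 1, Rbfox1 was 9.04-fold and Rbfox2 7.21-fold below the median of the other 15 mice (log2 differences of −3.17 and −2.85), followed by Srrm4 at −1.90, Nova2 at −1.77, Qk at −0.98 and Ptbp2 at −0.43. In scaled levels these 6 were lower there than in any other mouse, as were 35.1% of 17555 genes. Higher there than in any other mouse were 31.8% of genes, Khdrbs3 at 0.63 among them. The median of the 10 was −0.92, against −0.12 over all genes, whose middle 90% ran from −2.73 to 2.53. Rbfox3, the NeuN gene, was at −0.86 there, Khdrbs2 at −0.80 and Nova1 at −0.53. Within the RBFOX family, the log2 ratio of Rbfox1 to Rbfox3 per length was −1.70 in that mouse and 0.48 to 1.02 in the other 3 hTau.P301S mice.

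**Figure D4:**
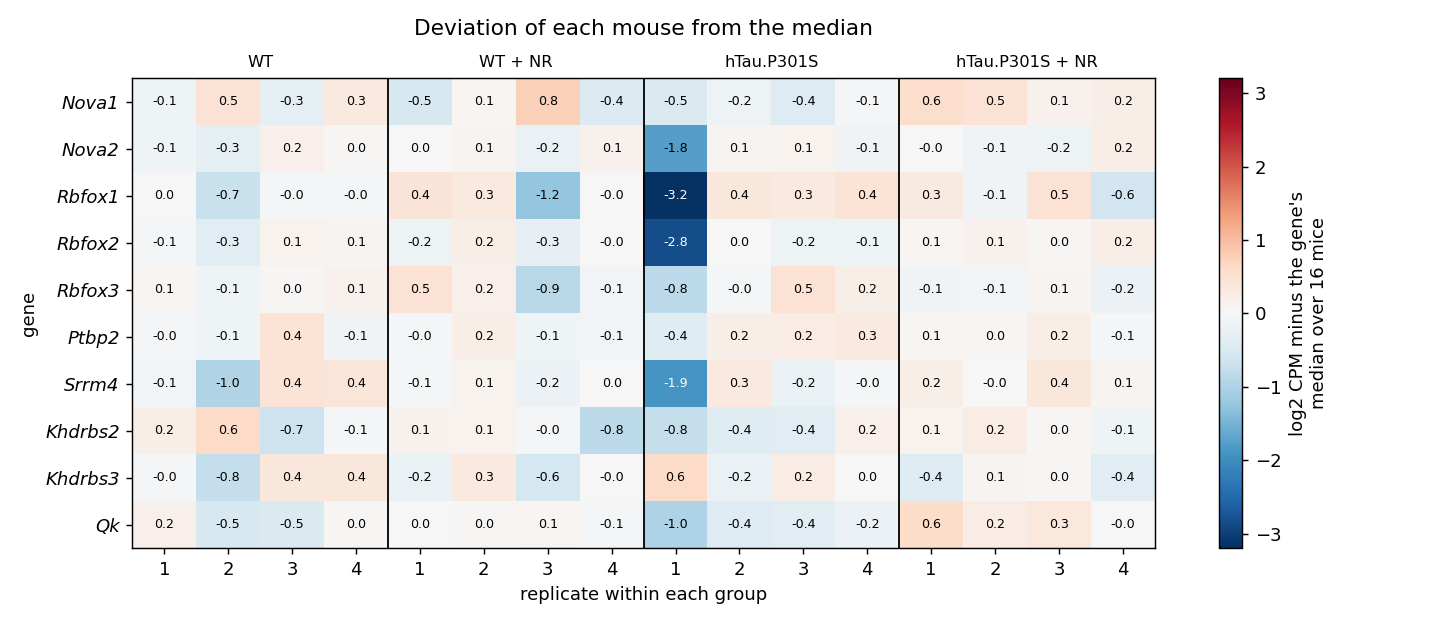
Log2 CPM of each regulator (y axis) in each mouse (x axis) minus the gene's median over 16 mice, in colour and printed in each cell. Replicate 1 of hTau.P301S is low for all but Khdrbs3, and WT replicate 2 and WT + NR replicate 3 are low for Rbfox1 and Khdrbs3 and high for Nova1.

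The mice with low sums of hippocampal excitatory neuron markers did not share 1 pattern of the regulators. WT replicate 2 and WT + NR replicate 3, with marker sums of 2268 and 1986 CPM, had Rbfox1 at 169.8 and 118 CPM, against 181 to 382 CPM in the 13 other mice apart from hTau.P301S replicate 1. Khdrbs3, the neuronal neurexin-exon regulator, was at 87.8 and 102 CPM in these 2 mice, the lowest of 16. Nova1, in contrast, was at 67.3 and 82.9 CPM, within the upper part of its range. Next in that sum, at 2309 CPM, hTau.P301S replicate 1 had the lowest Rbfox1 but, after scaling, the highest Khdrbs3 of 16 (229.8 CPM). Its Nova1, at 35.4 CPM, was lower than in all but 1 mouse. The library hTau.P301S + NR replicate 4, with a sum of 3353 CPM, had the lowest Rbfox1 of its group (181 CPM). Its Khdrbs3, at 116 CPM, and its Nova1, at 56.1 CPM, lay within the range of its group. The inhibitory neuron markers of WT replicate 2 and WT + NR replicate 3 summed to 1652 and 1314 CPM, against 611 to 1436 CPM in the other 14. The 1436 CPM was that of hTau.P301S + NR replicate 4. WT replicate 2 and WT + NR replicate 3 fall in different groups and share these values. The spread of Rbfox1, Khdrbs3 and Nova1 in WT and WT + NR includes this difference. The hTau.P301S + NR group also holds a library, replicate 4, with a low excitatory sum, a high inhibitory sum and striatal markers at 508 CPM. The part of these libraries in the comparisons was not tested.

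**Figure D5:**
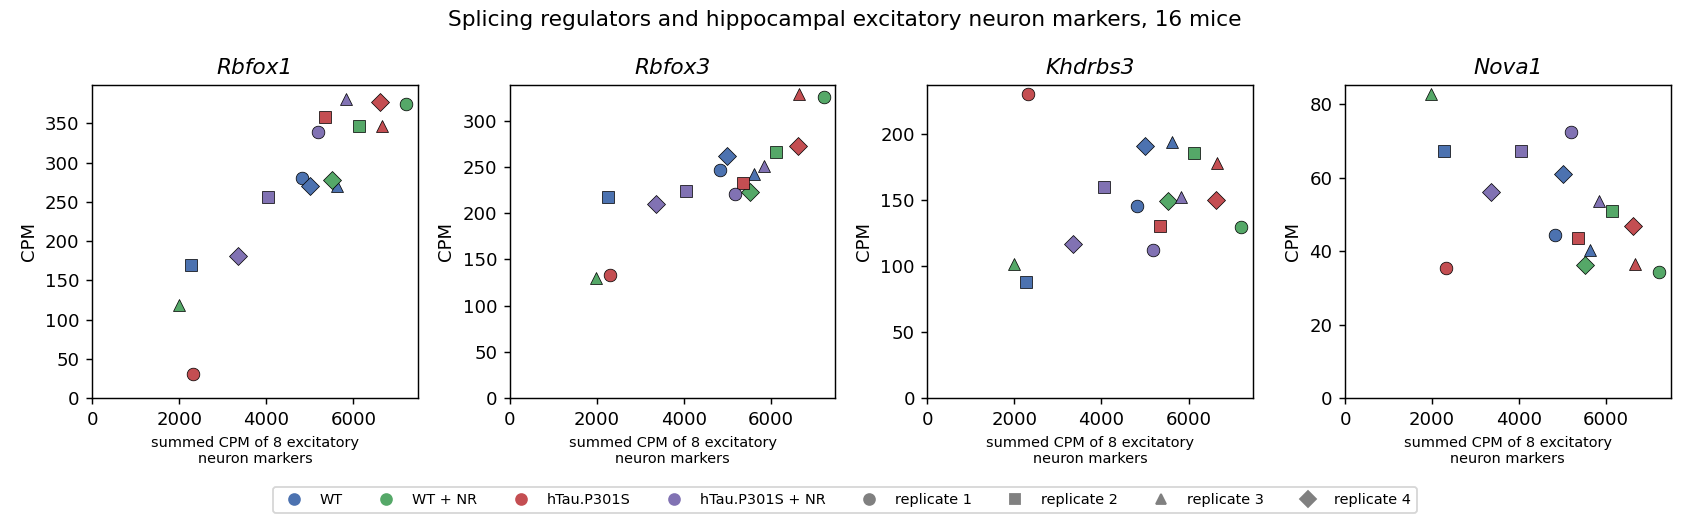
Level of Rbfox1, Rbfox3, Khdrbs3 and Nova1 in CPM (y axes) against the summed CPM of 8 hippocampal excitatory neuron markers (x axes) in 16 mice; colour gives the group and symbol the replicate. The mice with the lowest sums, 1986, 2268 and 2309 CPM, include the lowest Rbfox1 and Rbfox3 levels; for Khdrbs3 they hold the 2 lowest levels and the highest, and for Nova1 the highest and one near the lowest.

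Ratios between family members were taken within each mouse, which removes the depth of the library. Over 5 ratios and 4 pairwise comparisons, none of 20 was without overlap. Nova1 was below Nova2 per length in 14 of 16 mice, with a mean log2 ratio from −0.98 ± 0.72 (SD, n = 4) in WT + NR to −0.59 ± 0.29 in hTau.P301S + NR. Ptbp2 was above Ptbp1, the form that it replaces as neurons mature, in every group, with mean log2 ratios per length between 0.67 ± 0.43 in WT + NR and 0.98 ± 0.38 in hTau.P301S. Khdrbs2 was far below Khdrbs3, with mean log2 ratios from −5.85 ± 0.67 in untreated hTau.P301S to −5.12 ± 0.22 in NR-treated hTau.P301S mice. The untreated mean includes replicate 1 at −6.74, against −5.95 to −5.18 in the others of its group. A trend with gene length was not removed from the ratios, and these genes have deposited lengths of 10291 and 3662 bases.

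Another 23 regulators of alternative splicing, mostly of the PTBP, ELAVL, MBNL, CELF, Musashi, SRRM, KHDRBS and ESRP families and including Tardbp, were set beside the 10. Of these, 20 were tested, and edgeR and DESeq2 called 0 of 20 in each comparison. In hTau.P301S relative to WT 17 of 20 were lower (median −0.24), from Celf6 at −0.65 (SE 0.30) to Elavl2 at 0.23. Without hTau.P301S replicate 1, 12 were lower (median −0.05), as after removal of the length trend (median −0.11). Tardbp, which encodes TDP-43 and was singled out after its values were seen, was at −0.52 (SE 0.17, edgeR adjusted p = 0.598): its 4 hTau.P301S mice, at 83.7 to 108 CPM, were all below the 4 WT mice, at 118 to 161 CPM. Tardbp was the only one of the 20 without overlap in hTau.P301S relative to WT, where 2.69% of all genes were lower without overlap. It was at −0.46 without replicate 1 and −0.31 without the length trend. With NR in hTau.P301S mice 18 of 20 were higher (median 0.31), the highest being Msi2 at 0.79 (SE 0.40), and Tardbp was at 0.30 (SE 0.14), with 114 to 131 CPM. Here 4 of 20, Mbnl1, Celf4, Msi2 and Tardbp, were higher without overlap, where 6.32% of all genes were. Without replicate 1, 13 of 20 were higher (median 0.07) and Msi2 was at 0.50, and without the length trend 11 were higher (median 0.01). In WT mice with NR 9 were higher and 11 lower. Since both comparisons share the 4 hTau.P301S mice, opposite signs in them are not separate observations.

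Genes with exons regulated by the 10, such as the neurexins, Camk2d, Mapt and Mag, formed a list of 23, all tested. edgeR and DESeq2 called 0 of 23 in each comparison. In hTau.P301S mice, the target genes ran from Unc13b at −1.13 to Mbp at 0.72 relative to WT, with 11 higher and 12 lower, and from Mbp at −0.36 to Camk2d at 1.15 under NR, with 15 higher and 8 lower. Without hTau.P301S replicate 1, 17 were higher and 6 lower relative to WT, with Unc13b at −0.91 and Mbp at 0.55, and 14 were higher and 9 lower under NR, with Camk2d at 0.98. Without the length trend these counts were 16 higher and 7 lower, and 10 higher and 13 lower. These are total levels of each gene, and which exons the transcripts held was not analysed here.

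The genes whose level over 16 mice was most like that of each regulator, by the root mean square difference of log2 CPM after each gene's mean was subtracted, were found among all genes tested. Closest were Wiz to Nova2 (0.10), Ugcg to Ptbp2 (0.10), Myo6 to Qk (0.12), Srcin1 to Rbfox2 (0.13), Rictor to Srrm4 (0.13) and Crtc1 to Rbfox3 (0.14). Acsl5 was closest to Khdrbs3 (0.16), Fchsd2 to Nova1 (0.21), Cplx2 to Rbfox1 (0.21) and Abcb10 to Khdrbs2 (0.26). The mice share libraries and depth across genes, so these distances describe these 16 libraries.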

How the data were processed

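Hippocampal RNA of 16 mice was sequenced from libraries made with the NEBNext Ultra kit. The authors deposited raw counts per gene for all 16 mice in 1 table, with a gene length in bases per gene that served only for levels per kilobase and the length trend. Per the labels, reads were checked with FastQC, trimmed with Trim Galore and assigned to mm10. The study's methods guided the threshold for calls, and versions of the read trimming tools are not given in the sources used here.

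Counts were scaled by the trimmed mean of M values (TMM) over 16 mice and given as counts per 1000000 (CPM); log2 CPM used a prior count of 2. The quasi-likelihood test of edgeR 4.0.16 (R 4.3.3; filterByExpr, Benjamini-Hochberg adjustment over all genes tested) was run on the 2 groups of each comparison. The interaction and the genotype difference were fitted over 16 mice. A gene was called where the adjusted p was below 0.05 with a log2 fold change beyond 0.5 in either direction. For the interaction, the adjusted p alone was used. Alternatives were DESeq2 1.42.0, its size factors, other filters, removal of mitochondrial genes or of a length trend, all groups in 1 fit, a block on replicate number, and leaving out each mouse; for the lists, leaving out hTau.P301S replicate 1 and removing the length trend were chosen after seeing the data. The fits were tried on simulated data for hTau.P301S relative to WT only, with the spread of the WT mice. The simulation held no deviating library and no length trend, so it cannot judge the calls under NR. Exact permutation tests (scipy 1.17.1) were two-sided on log2 CPM. The members and lists were chosen with earlier results of these data known. All 10 regulators are covered in every comparison, singly or by their range, with the lowest and highest of each list, except where a gene is not reported here. Promoters are from RefSeq.

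Groups follow the sample titles. Same-numbered mice were different animals; over 16 pairs their deviations from the group means correlated from −0.54 to 0.29, so the numbers were not used to pair mice. No 2 libraries of a group agreed within sampling noise. The p-values set each difference against the spread between mice of the same group. In edgeR and DESeq2 the estimate of that spread also draws on other genes.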

Additional observations from a re-analysis of the deposited data

Results flagged for a closer look

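Within a group of 4 mice, a value was singled out where its gap to the nearest other mouse took up most of the group's range (Dixon's criterion), which chance does in about 1 in 20 groups. Of 40 combinations of regulator and group, 4 met it. Rbfox1 was at 31.0 CPM in hTau.P301S replicate 1, against 347 to 377 CPM in the other 3 mice, and Rbfox2 was at 38.1 CPM in the same mouse, against 241 to 274 CPM. That library also had the highest mitochondrial share, 14.4%, and the fewest genes detected, 19467. Rbfox1 was at 169.8 CPM in WT replicate 2, against 270.1 to 280.0 CPM; the striatal neuron markers of that mouse summed to 1462 CPM. Ptbp2 was at 129 CPM in WT replicate 3, against 87.2 to 93.0 CPM, in the library whose oligodendrocyte markers had the lowest sum, 2839 CPM. The part of these library properties in the 4 values was not tested.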

How the results depend on the processing

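Of 60 log2 fold changes (10 regulators in 6 comparisons), 38 changed sign under at least 1 setting, among which the largest as reported was 0.36; of 500 values under other settings 479 kept sign and call, 18 changed sign and 3 were called, and of 640 values without 1 mouse 553 kept both and 87 changed sign. The 3 calls were Nova1 and Qk under NR in hTau.P301S mice by DESeq2 (2 of 10 called) and Qk by DESeq2 with all 4 groups (1 of 10); no other setting called a regulator. The cause of each change was not tested, and depth limits Khdrbs2, with counts from 71 to 284.

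For the regulators whose sign changed, leaving out 1 mouse gave log2 fold changes in hTau.P301S relative to WT of −0.35 to 0.073 for Nova2, −0.0255 to 0.54 for Rbfox1, −0.18 to 0.19 for Rbfox3, −0.032 to 0.195 for Ptbp2 and −0.058 to 0.26 for Khdrbs3. Under NR in hTau.P301S mice, it gave −0.0335 to 0.38 for Nova2, −0.31 to 0.24 for Rbfox1, −0.29 to 0.083 for Rbfox3 and −0.18 to 0.027 for Ptbp2. Under NR in WT mice, it gave −0.39 to 0.086 for Nova1, −0.022 to 0.13 for Nova2, −0.016 to 0.43 for Rbfox1, −0.095 to 0.062 for Rbfox2, −0.25 to 0.17 for Rbfox3, −0.13 to 0.090 for Ptbp2, −0.30 to 0.087 for Srrm4, −0.38 to 0.033 for Khdrbs2 and −0.32 to 0.0066 for Khdrbs3. Between the NR-treated genotypes, it gave −0.10 to 0.038 for Nova2, −0.20 to 0.24 for Rbfox1, −0.26 to 0.15 for Rbfox3, −0.0098 to 0.27 for Khdrbs2 and −0.19 to 0.092 for Khdrbs3. For genotype over 16 mice, it gave −0.15 to 0.072 for Nova1, −0.17 to 0.027 for Nova2, −0.18 to 0.057 for Rbfox2, −0.12 to 0.062 for Rbfox3, −0.15 to 0.098 for Srrm4, −0.21 to 0.025 for Khdrbs2, −0.045 to 0.12 for Khdrbs3 and −0.068 to 0.089 for Qk. For the interaction, it gave −0.088 to 0.33 for Nova2, −0.48 to 0.064 for Rbfox1, −0.25 to 0.14 for Rbfox3 and −0.13 to 0.093 for Ptbp2.

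In hTau.P301S relative to WT, the sign changed for Rbfox3 at 0.069 without the length trend and Qk at 0.041 without the length trend. Under NR in hTau.P301S mice, the sign changed for Khdrbs2 at −0.0061 without the length trend. Under NR in WT mice, the sign changed for Rbfox2 at −0.0035 by DESeq2, −0.0034 with DESeq2 size factors, −0.0057 without a filter, −0.0063 with at least 10 counts in every mouse, −0.023 without the length trend, −0.0044 with all groups in 1 edgeR fit and −0.0050 by DESeq2 with all groups. Between the NR-treated genotypes, the sign changed for Ptbp2 at −0.0097 without the length trend. For genotype over 16 mice, the sign changed for Nova1 at 0.0057 without the length trend and Qk at −0.0041 without a filter and −0.010 with at least 10 counts in every mouse. For the interaction, the sign changed for Ptbp2 at −0.27 without the length trend.

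Genes called over the whole table in hTau.P301S relative to WT were 1 as reported, 115 by DESeq2, 494 by DESeq2 with all groups, 36 with all groups in 1 edgeR fit, 5 without a filter, 5 without the length trend, and 1 to 14 without 1 mouse (14 without hTau.P301S replicate 1). Under NR in hTau.P301S mice they were 1, against 283 and 287 by the same DESeq2 fits, 2 with all groups, 0 with at least 10 counts in every mouse, and 0 to 33 without 1 mouse (33 without hTau.P301S replicate 1). Under NR in WT they were 0, and 2 by DESeq2 with all groups. In hTau.P301S + NR relative to WT + NR they were 9, against 58 and 21 by DESeq2, 15 without a filter, and 8 to 31 without 1 mouse (31 without WT + NR replicate 3). For genotype they were 21, against 105 by DESeq2, 11 with at least 10 counts, 39 without the length trend, and 16 to 57 without 1 mouse (46 without WT + NR replicate 1, 57 without hTau.P301S replicate 1). For the interaction they were 0, against 18 by DESeq2, and 0 to 1 without 1 mouse (1 without hTau.P301S replicate 3).

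The replicate numbers did not pair the mice. With the number as a block, edgeR called 3 genes in hTau.P301S relative to WT, 0 under NR in hTau.P301S mice and 4 in hTau.P301S + NR relative to WT + NR, and 0 of 10 regulators in each comparison. Under the block the sign changed for Rbfox1 at −0.14 (in hTau.P301S relative to WT), Srrm4 at 0.014 (under NR in WT mice) and Rbfox3 at 0.0076 (between the NR-treated genotypes).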
